A study of Mus musculus with 12 samples.

Results

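The genes described here handle zinc and iron in Min6, an insulin-secreting mouse cell line derived from an insulinoma. They are every counted gene symbol of the zinc transporter families Slc30a (ZnT) and Slc39a (ZIP), the metallothionein genes Mt1, Mt2 and Mt3, their regulator Mtf1, and 8 iron genes: Tfrc, Slc11a2, Steap3, Fth1, Ftl1, Ncoa4, Slc40a1 and Ireb2. They were picked by symbol, 36 of the 24421 in the count files. Of the 36, 35 had at least 1 read, and 30 passed the low-count filter and were tested among 13102 genes. They comprise 10 ZnT genes, 14 ZIP genes, 4 metallothionein and Mtf1 genes, 3 iron uptake genes, 4 genes of iron storage and release, and 1 iron regulatory protein.

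All 12 libraries came from Min6 cells of a genotype labelled WT, and all cells were given 0.3 mM palmitate, a saturated fatty acid, for 24 h. In the sh-ctrl group (6 libraries) the cells carried a control hairpin adenovirus for 48 h, and in the sh-Il22ra1 group (6 libraries) the virus carried a hairpin against Il22ra1, which encodes the subunit of the interleukin-22 receptor that binds the ligand. The comparison asks how RNA levels in palmitate-treated beta cells differ between the groups. Loss of Il22ra1 cannot be told apart here from other effects of the hairpin or its virus. Cells without palmitate were not analysed here. Replicates 2 to 6 of the sh-Il22ra1 group carry treatment labels in which the gene name ends in 2 to 6 (sh-Il22ra2 and so on); their titles place them with replicate 1, and the group follows the titles. Whether the samples came from separate cultures is not in the labels; p-values here cover the spread between samples, and that spread may be technical.

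Zinc enters the cytosol through ZIP proteins and leaves it, to the outside or into organelles, through ZnT proteins. Beta cells store insulin in granules as crystals with zinc, which the granule transporter ZnT8 (Slc30a8) loads. Metallothioneins bind cytosolic zinc, and the transcription factor MTF-1 (Mtf1) turns on Mt1, Mt2 and the plasma membrane exporter Slc30a1 when zinc is plentiful. Iron enters as transferrin bound to its receptor (Tfrc), is reduced by Steap3 and leaves the endosome through Slc11a2 (DMT1). It is then stored in ferritin, built from Fth1 and Ftl1 chains, is freed when Ncoa4 takes ferritin to the lysosome, or leaves the cell through ferroportin (Slc40a1). When iron is low, iron regulatory proteins, of which Ireb2 encodes IRP2, bind hairpins called iron-responsive elements; they hold back translation where the hairpin lies in a 5′ untranslated region and protect the messenger where it lies in a 3′ untranslated region.

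The hairpins found in 4 of the genes by a strict letter search are shown because, in textbook regulation, their place sets Tfrc apart from ferritin and ferroportin. Transcripts of GENCODE M21 on GRCm38 were searched for a C, 5 paired bases (G with T allowed), the loop CAGTGN with any last base other than G, and the pairing strand, within untranslated regions of protein-coding transcripts. Such a match was found in 123 of 21877 protein-coding genes (0.562%): 23 genes (0.105%) had one in a 5′ untranslated region and 100 (0.457%) in a 3′ untranslated region. Among the 36 genes 4 held one, with the loop in capitals and the sequence of the sense strand printed from 5′ to 3′.
Fth1, 5′ untranslated region, chr19:9982732-9982760, plus strand: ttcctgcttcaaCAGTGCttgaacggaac
Ftl1, 5′ untranslated region, chr7:45459779-45459807, minus strand: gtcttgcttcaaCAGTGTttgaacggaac
Slc40a1, 5′ untranslated region, chr1:45925465-45925493, minus strand: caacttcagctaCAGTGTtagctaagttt
Tfrc, 3′ untranslated region, chr16:32631219-32631247, plus strand: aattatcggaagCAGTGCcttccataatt
Tfrc, 3′ untranslated region, chr16:32631598-32631626, plus strand: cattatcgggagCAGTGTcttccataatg
Tfrc, 3′ untranslated region, chr16:32631663-32631691, plus strand: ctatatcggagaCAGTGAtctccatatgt
Tfrc, 3′ untranslated region, chr16:32631710-32631738, plus strand: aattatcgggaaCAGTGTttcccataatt
The other 32 genes, Slc11a2 among them, held no match by these letters. The search can miss hairpins that differ from them, and it says nothing about whether an iron regulatory protein binds these transcripts.

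Reads in genes numbered 13108494 to 15887448 per library. The targeted gene, Il22ra1 (chr4:135728172-135752140, plus strand), had 7 to 20 reads in each sh-ctrl library, 74 in all, and 1 to 4 in each sh-Il22ra1 library, 15 in all, and a two-sided exact permutation test gave p = 0.00216, as small as 6 against 6 can give. Beta cell markers were abundant in both groups, the 14 genes (mostly Ins2 and Iapp) together at 77090 to 115500 CPM (reads per 1000000 gene reads, scaled by TMM) in sh-ctrl and 69210 to 78700 CPM in sh-Il22ra1. At an adjusted p under 0.05 (edgeR), 3 of the 14 rose, Slc30a8 among them, 7 fell and 4 did not pass. Of the markers of other cell types, 5 islet hormone genes (mostly Gcg) summed to 243 to 294 CPM and 145 to 158 CPM, 4 duct genes (nearly all Krt7) to 144 to 214 CPM and 208 to 238 CPM, and 6 leukocyte genes (nearly all Cd68) to 18.6 to 27.2 CPM and 5.83 to 9.57 CPM, in sh-ctrl and sh-Il22ra1 respectively. The 7 fibroblast genes summed to 3.09 to 6.56 CPM and 1.29 to 2.12 CPM, the 4 endothelial genes to 1.54 to 4.84 CPM and 3.12 to 4.57 CPM, and the 8 acinar genes, 3 of them at 0 in every library, to 0.467 to 0.840 CPM and 0.391 to 1.04 CPM. Ptprc, the pan-leukocyte marker, was at or near 0, with means of 0.0357 and 0.0902 CPM. Reads without an alignment made up 12.8% to 17.3% of the sh-ctrl files and 8.71% to 11.8% of the sh-Il22ra1 files. The part of these markers and of the alignment rate in the results below was not tested. Sh-ctrl replicates 1 and 4 stood apart from the other sh-ctrl libraries on the second principal component, which held 13.7% of the variance, and values without them are given where a call changed or the size moved by more than 1.5 times.

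Zinc and iron genes changed in both directions after knock-down of Il22ra1, 9 rising and 8 falling of the 30 tested. These shares lie near those of all genes tested, of which 25.4% rose and 26.5% fell. The 2 largest changes among the 30 were falls of plasma membrane zinc importers. Slc39a1 (ZIP1) fell 2.84-fold, and Slc39a8 (ZIP8), which also carries manganese and iron, fell 2.35-fold. The zinc exporter Slc30a1 fell 1.81-fold, while the importer Slc39a9 (ZIP9) rose 1.67-fold. The iron uptake genes Tfrc and Slc11a2 rose 1.52-fold and 1.45-fold, and both ferritin chains rose as well. In bulk RNA, fewer cells of a type and less RNA per cell cannot be told apart, here and in every result that follows.

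A gene was called at an adjusted p under 0.05, from the quasi-likelihood test of edgeR with Benjamini-Hochberg adjustment over the 13102 genes. Across all of them 25.4% were called higher and 26.5% lower in sh-Il22ra1, 51.9% in all, beside 17 of the 30 tested zinc and iron genes (56.7%). In 28.1% of all genes tested the CPM of the groups did not overlap; this held for 10 of the 30 (33.3%), 6 higher and 4 lower. Their median log2 fold change was 0.12 against -0.0043 over all genes, and the median size of the change was 0.30 against 0.26. These shares lie near the background and are no result about zinc and iron genes as a group. By role, 71.43% of 7 tested ZnT genes, 45.45% of 11 ZIP genes and 66.67% of 3 iron uptake genes were called. It was 50% of 4 metallothionein and Mtf1 genes and 50% of 4 genes of iron storage and release. With so few genes in a role, these shares beside 51.9% are no result about a role. With offsets for transcript length and GC content, the split of 9 higher and 8 lower became 16 and 9; over all genes the same offsets gave 4352 higher and 3292 lower, in place of 3323 and 3472. The fitted falls of Mtf1, Slc30a4 and Ireb2 shrank to -0.33, -0.25 and -0.18 on the log2 scale while passing the test. Slc30a7 shrank to -0.51, Slc30a8 to 0.17 and Fth1 to 0.29, and these passed too. Other called changes grew, as that of Slc39a13 did to 0.36.

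**Figure D1:**
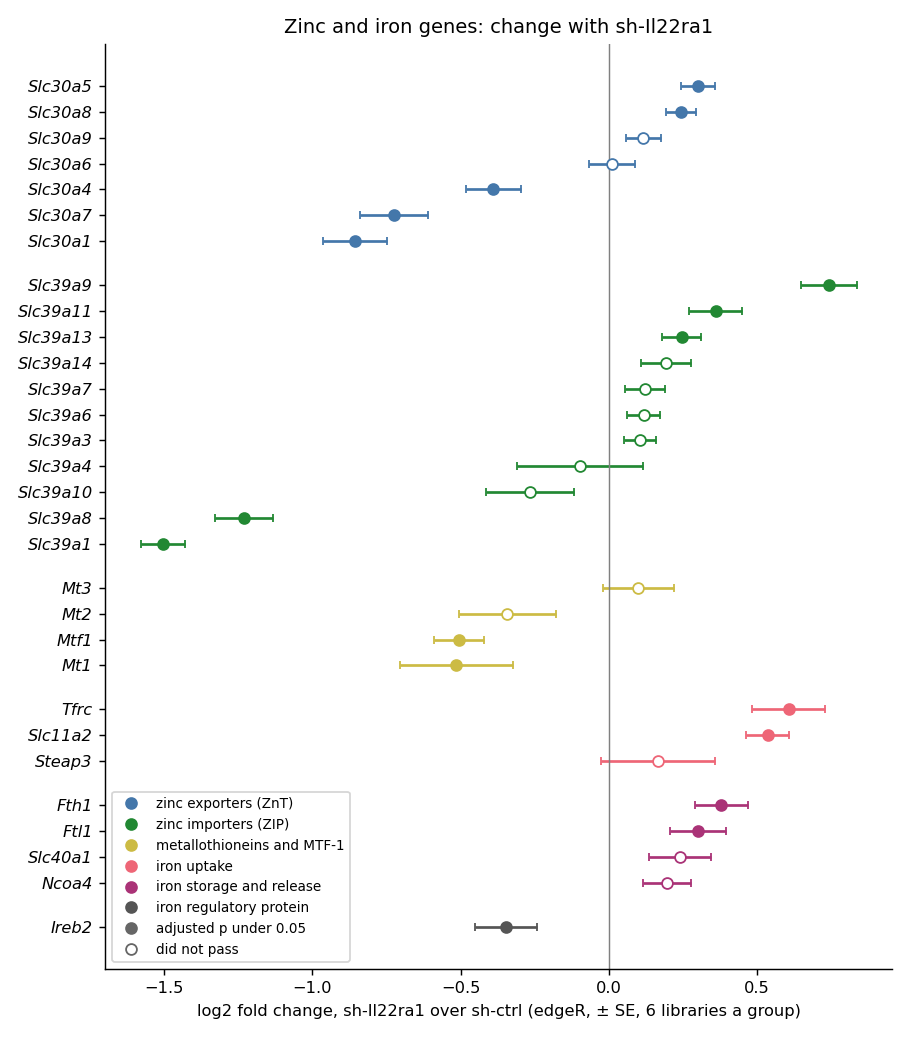
Log2 fold change (x axis) of the 30 tested zinc and iron genes (y axis, grouped by role), sh-Il22ra1 over sh-ctrl, with bars of ± SE from edgeR over 6 libraries a group; filled points passed the test and open points did not. Slc39a1 and Slc39a8 lie beyond -1, and no gene lies beyond 1.

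Of the 10 ZnT genes, 7 were tested: Slc30a8 and Slc30a5 rose, Slc30a1, Slc30a7 and Slc30a4 fell, and Slc30a9 and Slc30a6 did not pass. Slc30a8 (chr15:52295553-52335798, plus strand), the granule zinc transporter, ranged from 247 to 287 CPM in sh-ctrl (median 266) and from 305 to 326 CPM in sh-Il22ra1 (median 311). Every sh-Il22ra1 library was above every sh-ctrl library. The rise was 0.24 on the log2 scale (SE 0.0514, edgeR adjusted p = 6.76e-04), a small one, 1.18-fold. Insulin messenger did not rise with it: Ins2 averaged 49550 CPM (SD 10340, n = 6) in the controls and 42840 CPM (SD 3214, n = 6) after knock-down and did not pass the test, and Ins1 fell by 0.36 on the log2 scale. Per 1000 reads of Ins2 there were 3.66 to 7.74 reads of Slc30a8 in sh-ctrl libraries and 6.48 to 8.24 in sh-Il22ra1 libraries, ranges that overlap.

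Slc30a5 (chr13:100802648-100833427, minus strand), which brings zinc into the early secretory pathway together with ZnT6, went from 52.3 to 61.6 CPM in sh-ctrl (median 57.1) up to 67.2 to 73.9 CPM in sh-Il22ra1 (median 71.1). The groups did not overlap, and the log2 fold change was 0.30 (SE 0.0562, edgeR adjusted p = 2.16e-04). Its partner Slc30a6 had a median of 20.2 CPM in sh-ctrl and 20.6 CPM in sh-Il22ra1, with a log2 fold change of 0.0091 (SE 0.0778) that missed the threshold and was -0.027 without sh-ctrl replicates 1 and 4.

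Slc30a1 (chr1:191906767-191913247, plus strand), the exporter of the plasma membrane, ranged from 12.5 to 16.6 CPM in sh-ctrl (median 14.9) and from 6.71 to 9.72 CPM in sh-Il22ra1 (median 8.28). No sh-Il22ra1 library reached the lowest sh-ctrl library. It fell by 0.86 on the log2 scale (SE 0.109, edgeR adjusted p = 3.45e-06). Slc30a7 (chr3:115938973-116007406, minus strand), a Golgi transporter, ranged from 15.7 to 28.4 CPM (median 24.7) in sh-ctrl and from 12.8 to 16.0 CPM (median 13.9) in sh-Il22ra1. The overlap came from a single control, sh-ctrl replicate 4 at 15.7 CPM, and the other 5 controls were at 21.8 CPM or more. The level fell 1.65-fold, a log2 fold change of -0.73 (SE 0.116, edgeR adjusted p = 4.49e-05). In the annotation 16.0% of Slc30a7 exon bases are shared with other genes, so some of its reads may be theirs.

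Slc30a4, an endosomal and vesicle transporter, ranged from 21.1 to 27.7 CPM in sh-ctrl (median 23.4) and from 16.1 to 22.4 CPM in sh-Il22ra1 (median 17.4). Of the sh-Il22ra1 libraries, replicate 1 at 22.4 CPM was the 1 inside the sh-ctrl range. The log2 fold change was -0.39 (SE 0.0929, edgeR adjusted p = 0.00178). Slc30a9, with a median of 46.0 CPM in sh-ctrl and 50.1 CPM in sh-Il22ra1, had a log2 fold change of 0.12 (adjusted p = 0.113) and did not pass.

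The 3 ZnT genes under the filter were barely expressed. Slc30a3, the transporter of synaptic vesicles, had 49 reads over the sh-ctrl libraries and 28 over the sh-Il22ra1 libraries, and a two-sided exact permutation p of 0.0325, or 0.162 after Benjamini-Hochberg adjustment over the 5 genes tested in this way. Slc30a2 had 28 and 15 reads (exact permutation p = 0.193), and Slc30a10 had 1 and 5 (exact permutation p = 0.182). None of these differences was detectable at this depth.

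**Figure D2:**
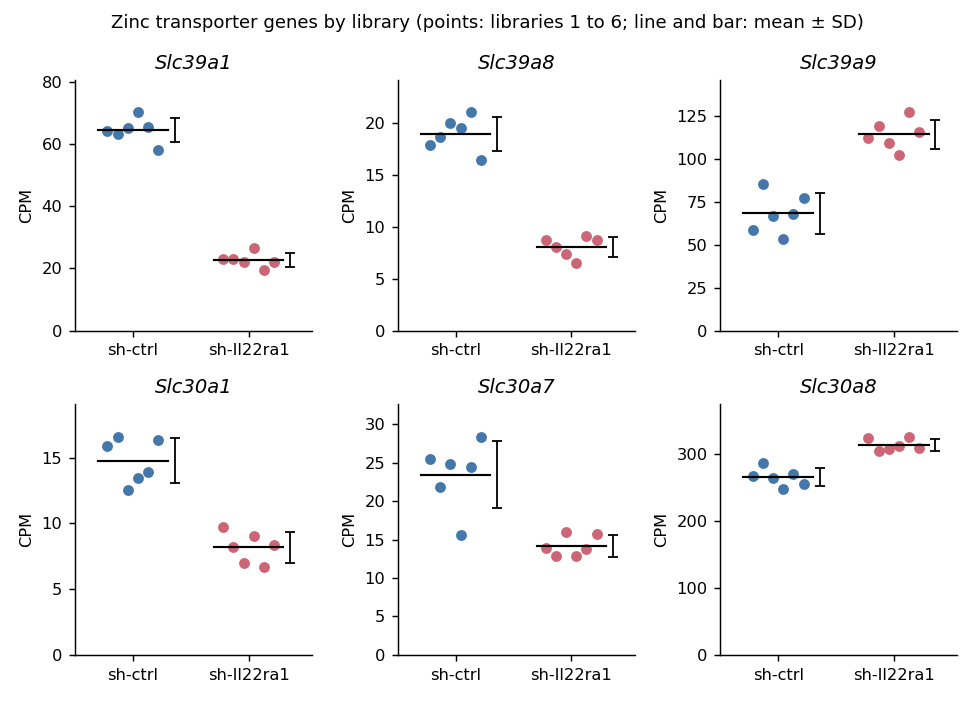
CPM (y axis, from 0) of 6 zinc transporter genes in each library of sh-ctrl and sh-Il22ra1 (x axis); points are libraries 1 to 6, lines are means and bars are ± SD. Slc39a1, Slc39a8 and Slc30a1 are lower and Slc39a9 and Slc30a8 higher in all sh-Il22ra1 libraries, and Slc30a7 overlaps through sh-ctrl replicate 4.

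Of the 14 ZIP genes, 11 were tested: Slc39a9, Slc39a11 and Slc39a13 rose, Slc39a1 and Slc39a8 fell, and 6 did not pass. Slc39a1 (chr3:90248172-90253612, plus strand), a plasma membrane importer, ranged from 58.1 to 70.2 CPM in sh-ctrl (median 64.7) and from 19.4 to 26.5 CPM in sh-Il22ra1 (median 22.6). The lowest control was thus above the highest knock-down library by more than the whole range of either group. It fell by 1.50 on the log2 scale (SE 0.0734, edgeR adjusted p = 1.71e-11). Over 21 alternative settings the log2 fold change stayed between -1.55 and -1.46.

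Slc39a8 (chr3:135825279-135888572, plus strand) lies on the same chromosome but far from Slc39a1. It ranged from 16.4 to 21.0 CPM in sh-ctrl (median 19.1) and from 6.50 to 9.11 CPM in sh-Il22ra1 (median 8.38). All sh-Il22ra1 libraries were below all sh-ctrl libraries, and the fall was 1.23 on the log2 scale (SE 0.0974, edgeR adjusted p = 8.54e-09). Slc39a1 and Slc39a8 were the only 2 of the 30 genes to change by over 2-fold, as 637 of all 13102 did.

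Slc39a9 (chr12:80643883-80683342, plus strand), a transporter of the Golgi and plasma membrane also known as a membrane androgen receptor, was the ZIP gene that rose most. It ranged from 53.1 to 85.3 CPM in sh-ctrl (median 67.3) and from 102 to 127 CPM in sh-Il22ra1 (median 114). The groups did not overlap, and the log2 fold change was 0.74 (SE 0.0932, edgeR adjusted p = 2.83e-06). Counted within each library, there were 0.757 to 1.35 reads of Slc39a9 for each read of Slc39a1 in sh-ctrl and 3.87 to 6.54 in sh-Il22ra1, a ratio that does not depend on library scaling. The ratio restates the rise of Slc39a9 and the fall of Slc39a1 in the same libraries and is no separate evidence.

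Slc39a11 (chr11:113244853-113650079, minus strand), another Golgi member, ranged from 22.6 to 34.4 CPM in sh-ctrl (median 29.6) and from 35.9 to 41.7 CPM in sh-Il22ra1 (median 37.7). The groups were apart, though by a small gap, and the log2 fold change was 0.36 (SE 0.0883, edgeR adjusted p = 0.00227). Slc39a13 (ZIP13), which moves zinc and iron in the secretory pathway, overlapped between groups, at 34.4 to 42.6 CPM (median 38.0) and 41.3 to 48.4 CPM (median 45.9), and had a log2 fold change of 0.25 (SE 0.0659, edgeR adjusted p = 0.00441).

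The ZIP genes that did not pass included the most abundant one. Slc39a7 (ZIP7), which releases zinc from the endoplasmic reticulum, had medians of 300.1 CPM in sh-ctrl and 318 CPM in sh-Il22ra1 and a log2 fold change of 0.12 (SE 0.0672). Without sh-ctrl replicates 1 and 4 it passed, at 0.14 (adjusted p = 0.0394). In the annotation 80.7% of its exon bases are shared with Gm20427, a symbol that is not counted in these files. Slc39a6, Slc39a3 and Slc39a14 had log2 fold changes of 0.12, 0.10 and 0.19 (without that pair of controls 0.061, 0.086 and 0.076), Slc39a10 had -0.27 and Slc39a4, the intestinal importer, -0.10 (0.094 without the pair). Slc39a10 was at 6.11 to 14.3 CPM in sh-ctrl, a wide range within which all its sh-Il22ra1 values (8.21 to 10.1 CPM) lay. Leaving out that pair, it passed at -0.45 (adjusted p = 0.00103).

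Slc39a2 and Slc39a5 were under the filter, with 17 and 25 reads and with 19 and 17 reads in sh-ctrl and sh-Il22ra1 (exact permutation p = 0.552 and p = 0.779). Slc39a12 had no read in any of the 12 libraries; 3 reads, the limit that a count of 0 allows, correspond to 0.189 CPM in the deepest and 0.229 CPM in the shallowest library, for counting error only.

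Among the metallothionein genes and their regulator, Mtf1 and Mt1 fell, and Mt2 and Mt3 did not pass. Mtf1 (chr4:124802104-124849800, plus strand) ranged from 19.5 to 27.2 CPM in sh-ctrl (median 24.4) and from 16.3 to 18.4 CPM in sh-Il22ra1 (median 16.6). The groups did not overlap, and the knock-down libraries lay close together. The log2 fold change was -0.51 (SE 0.0831, edgeR adjusted p = 5.91e-05).

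Mt1 (chr8:94179082-94180327, plus strand) varied widely among the controls, from 334 to 858 CPM (median 443), and ranged from 258 to 471 CPM in sh-Il22ra1 (median 373). All sh-Il22ra1 values except the 2 lowest lay within the control range. Its log2 fold change was -0.52 (SE 0.190, edgeR adjusted p = 0.0296). This call rested on few libraries: sh-ctrl replicates 4 (858 CPM) and 1 (657 CPM), the pair that stood apart, held the highest values, and without them the change was -0.16 (adjusted p = 0.196). Leaving out either alone gave -0.33 (adjusted p = 0.0578, without replicate 4) and -0.44 (adjusted p = 0.0677, without replicate 1). Other settings gave smaller p for Mt1. With replicate number added to the fit as a block it was at -0.46 (edgeR adjusted p = 0.00237). With the length and GC offsets it was at -0.53 (edgeR adjusted p = 0.0015).

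Mt2 (chr8:94172664-94173568, plus strand), the neighbour of Mt1, ranged from 228 to 505 CPM in sh-ctrl (median 355) and from 203 to 371 CPM in sh-Il22ra1 (median 294). The same 3 controls were highest and in the same order for both genes, sh-ctrl replicates 4, 1 and 5, and sh-Il22ra1 replicate 3 was lowest for both. The log2 fold change of Mt2 was -0.34 (SE 0.163, edgeR adjusted p = 0.0869), and -0.11 (adjusted p = 0.436) without sh-ctrl replicates 1 and 4. Mt2 passed with the replicate block, at -0.32 (edgeR adjusted p = 0.00748), and with the length and GC offsets, at -0.42 (edgeR adjusted p = 0.00426). In the annotation 73.5% of Mt2 exon bases are shared with an antisense gene, Gm45774, a symbol that is not counted in these files. The strand setting of the counting is not given in the sources used here. Mt3, the metallothionein best known from brain, ranged from 49.7 to 91.8 CPM in sh-ctrl (median 68.2) and from 65.9 to 94.0 CPM in sh-Il22ra1 (median 69.5), and its log2 fold change was 0.10 (SE 0.120), short of the threshold. Without sh-ctrl replicates 1 and 4 it was 0.25 (adjusted p = 0.0172).

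**Figure D3:**
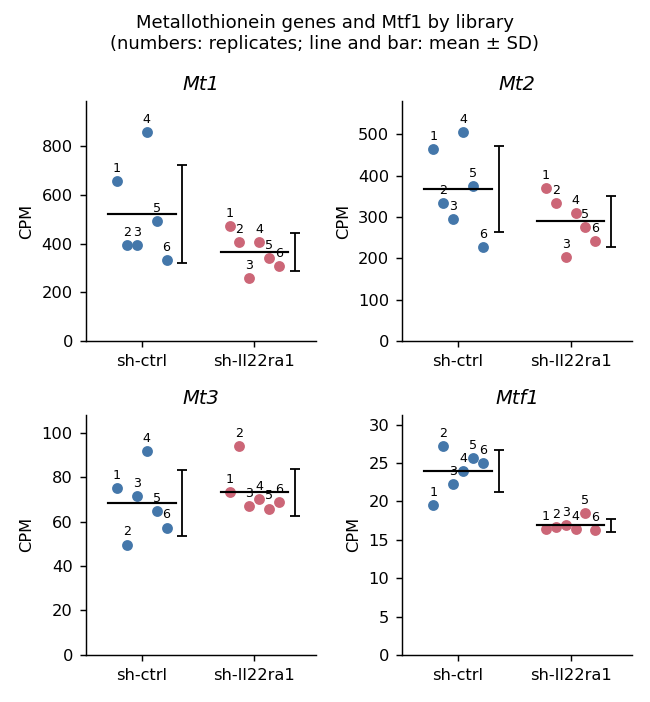
CPM (y axis, from 0) of Mt1, Mt2, Mt3 and Mtf1 in each library (x axis, group; numbers are replicates), with mean and ± SD. Sh-ctrl replicates 4 and 1 are the highest libraries for Mt1 and Mt2, while Mtf1 is lower in all 6 sh-Il22ra1 libraries.

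MTF-1 binds metal-responsive elements, and the sequences before 3 of its textbook targets, Mt1, Mt2 and Slc30a1, are shown for that reason. RefSeq windows on GRCm38.p6 from 250 bases before to 50 after a start were searched for TGCACNC and TGCGCNC on both strands, without regard to overlap with other motifs. Of 32851 windows of 300 bases, 25.7% held at least 1 match, 1.97% at least 3 and 0.517% at least 4. The windows of Mt2, Mt1 and Slc30a1 held 4, 3 and 2. Of the 30 zinc and iron genes with a window, 16 held at least 1 match, and 4 held at least 3: Mt1, Mt2, Slc30a4 and Slc30a10. These are counts of genes, some with several windows, and cannot be set against the shares of windows. The bases of each window that precede the first annotated start follow, with matches in capitals, and they hold 1, 3 and 1 of those matches.
Mt1, chr8:94178839-94179081, plus strand: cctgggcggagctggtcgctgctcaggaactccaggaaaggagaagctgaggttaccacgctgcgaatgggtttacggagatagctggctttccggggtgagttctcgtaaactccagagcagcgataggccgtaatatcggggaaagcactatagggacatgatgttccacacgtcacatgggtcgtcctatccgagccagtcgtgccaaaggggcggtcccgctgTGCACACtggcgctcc
Mt2, chr8:94172368-94172617, plus strand: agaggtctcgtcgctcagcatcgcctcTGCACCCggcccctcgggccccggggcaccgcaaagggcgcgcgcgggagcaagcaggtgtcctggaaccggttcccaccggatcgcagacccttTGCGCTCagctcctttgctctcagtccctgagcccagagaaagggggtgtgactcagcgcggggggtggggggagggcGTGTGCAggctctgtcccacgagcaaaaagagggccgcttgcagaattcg
Slc30a1, chr1:191906531-191906766, plus strand: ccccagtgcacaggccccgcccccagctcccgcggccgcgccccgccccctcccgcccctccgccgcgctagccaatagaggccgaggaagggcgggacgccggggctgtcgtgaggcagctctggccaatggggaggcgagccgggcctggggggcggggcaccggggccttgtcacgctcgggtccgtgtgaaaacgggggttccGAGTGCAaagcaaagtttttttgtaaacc
The Mtf1 window and those of Slc39a1 and Slc39a9 held no match, and of the 2 Slc39a8 windows 1 held a single match. A match of letters is not a bound site, and binding was not measured.

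Of the 3 iron uptake genes, Tfrc and Slc11a2 rose and Steap3 did not pass. Tfrc (chr16:32608920-32632794, plus strand), which carries the 4 hairpins printed above, ranged from 21.2 to 29.7 CPM in sh-ctrl (median 23.6) and from 29.9 to 52.2 CPM in sh-Il22ra1 (median 35.8). The groups met almost edge to edge, without overlap, and sh-Il22ra1 replicate 1 was well above the other 5, which did not exceed 37.6 CPM. The log2 fold change was 0.61 (SE 0.122, edgeR adjusted p = 4.25e-04), and leaving out any 1 library kept the call. Slc11a2 (chr15:100387898-100425072, minus strand) ranged from 29.5 to 40.5 CPM in sh-ctrl (median 36.9) and from 49.5 to 54.6 CPM in sh-Il22ra1 (median 53.2). Here the groups were clearly apart, and the log2 fold change was 0.53 (SE 0.0715, edgeR adjusted p = 5.85e-06). Steap3 was low, with medians of 2.37 CPM and 2.74 CPM, and its log2 fold change of 0.16 (SE 0.192) did not pass; it was 0.0082 without sh-ctrl replicates 1 and 4.

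Both ferritin chains rose. Fth1 (chr19:9980598-9985098, plus strand), the ferroxidase chain, ranged from 541 to 809 CPM in sh-ctrl (median 619) and from 770 to 925 CPM in sh-Il22ra1 (median 859). Sh-ctrl replicates 1 and 4, at 777 and 809 CPM, were the 2 controls that reached the sh-Il22ra1 range. The log2 fold change was 0.38 (SE 0.0892, edgeR adjusted p = 0.00162). Ftl1 (chr7:45457944-45459884, minus strand), the light chain, ranged from 2253 to 3522 CPM in sh-ctrl (median 2612) and from 3077 to 3773 CPM in sh-Il22ra1 (median 3309), with the same 2 controls inside the upper range. Its log2 fold change was 0.30 (SE 0.0951, edgeR adjusted p = 0.0127).

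The 2 chains kept a similar ratio, with 4.19 ± 0.114 (SD, n = 6) reads of Ftl1 per read of Fth1 among controls and 3.97 ± 0.212 (SD, n = 6) after knock-down. Ferritin genes have near-identical processed copies in the mouse genome, and 34.6% of Ftl1 exon bases overlap other annotated genes. Most of that overlap, 26.5% of the exon bases, is with Gm10252, a symbol that is not counted in these files. The ferritin counts are uncertain to the extent that reads were split or dropped.

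Slc40a1, the iron exporter ferroportin, ranged from 8.99 to 13.7 CPM in sh-ctrl (median 10.9) and from 11.6 to 15.1 CPM in sh-Il22ra1 (median 13.2), and its log2 fold change of 0.24 (SE 0.104, edgeR adjusted p = 0.0619) did not pass. Ncoa4, the receptor that delivers ferritin to the lysosome, had medians of 39.9 CPM and 44.3 CPM and a log2 fold change of 0.20 (SE 0.0807, edgeR adjusted p = 0.0504), just outside the threshold. It passed in 7 of 21 alternatives, and without sh-ctrl replicate 4 the change was 0.11 (adjusted p = 0.119), or 0.084 (adjusted p = 0.258) without replicates 1 and 4. Slc40a1 was at 0.14 (adjusted p = 0.254) without that pair.

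Ireb2 (chr9:54863789-54912530, plus strand) fell. It ranged from 21.7 to 31.1 CPM in sh-ctrl (median 26.5) and from 18.0 to 25.5 CPM in sh-Il22ra1 (median 20.3), and the groups overlapped. The log2 fold change was -0.35 (SE 0.105, edgeR adjusted p = 0.00948). Aco1, which encodes the other iron regulatory protein, did not pass at a log2 fold change of 0.051 (SE 0.0576), and neither did Fbxl5, the iron sensor that marks IRP2 for breakdown, at 0.057. Protein levels and the binding of iron regulatory proteins were not measured.

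**Figure D4:**
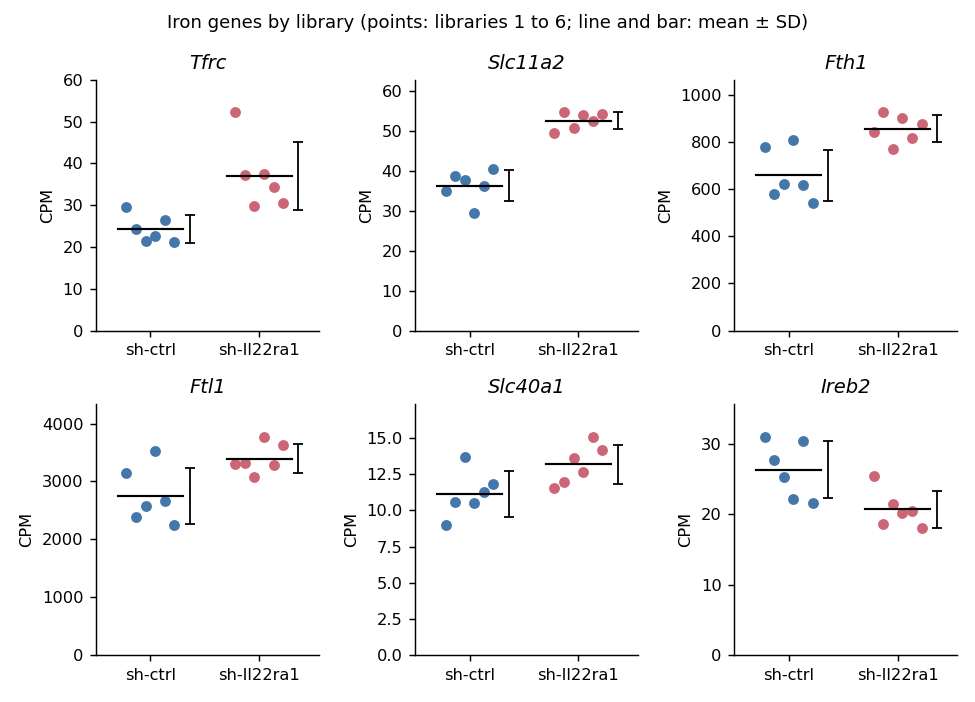
CPM (y axis, from 0) of 6 iron genes in each library of sh-ctrl and sh-Il22ra1 (x axis); points are libraries 1 to 6, lines are means and bars are ± SD. Tfrc and Slc11a2 are higher in all sh-Il22ra1 libraries, Fth1 and Ftl1 rise with overlap, Ireb2 falls with overlap, and Slc40a1 did not pass.

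Levels of different genes are compared per kilobase of a chosen reference transcript. In sh-ctrl the highest means were 2847 CPM per kb for Ftl1, 949.9 for Mt1, 719 for Mt2 and 708 for Fth1, all far above the transporters. Mt1, Mt2 and Fth1 had overlapping ranges over libraries, so their order is not settled. Slc30a8 came next, at 135 CPM per kb ± 6.88 (SD, n = 6), level with Slc39a7 at 130.3 ± 11.6 (SD, n = 6) and Mt3 at 128 ± 27.5 (SD, n = 6), which overlapped. These 3 were well above Slc39a1, the next gene, at 27.2 CPM per kb ± 1.64 (SD, n = 6).

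With the knock-down Slc39a1 went to 9.60 CPM per kb, below 5 tested zinc importers that were under it in sh-ctrl: Slc39a6 (24.3), Slc39a9 (21.9), Slc39a3 (20.7), Slc39a13 (18.5) and Slc39a11 (14.4). Slc39a9 went from 13.1 to 21.9 CPM per kb and so reached the level of Slc39a3. In sh-Il22ra1 the highest zinc transporters were again Slc30a8, at 155 to 165 CPM per kb, and Slc39a7, at 130.4 to 158 CPM per kb, ranges that overlap. Slc30a5, the next ZnT gene, was at 22.2 CPM per kb.

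**Figure D5:**
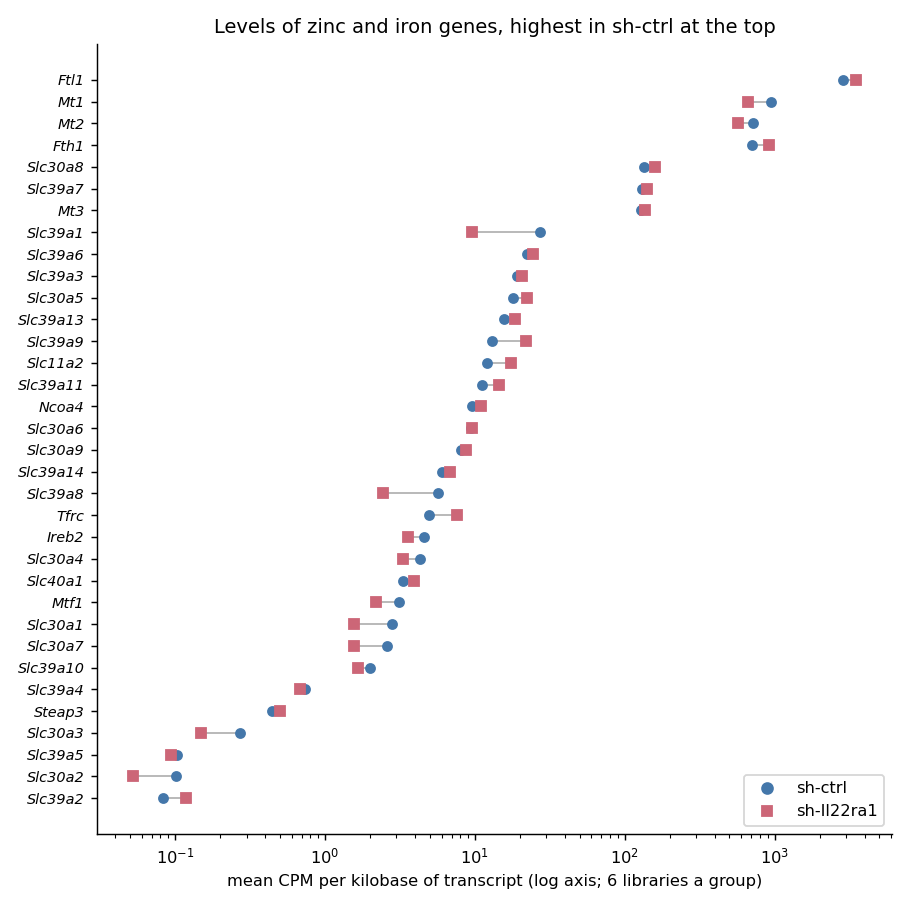
Mean CPM per kilobase of transcript (x axis, log scale; 6 libraries a group) of the zinc and iron genes (y axis), ordered by sh-ctrl; circles are sh-ctrl and squares sh-Il22ra1. Ferritin, Mt1 and Mt2 lead, Slc30a8 and Slc39a7 are the highest zinc transporters, and Slc39a1 moves furthest of the tested genes; Slc30a10 (6 reads in all) and Slc39a12 (no read) are not drawn.

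Other genes of the 2 metals were taken from 3 lists. Of 29 further genes of iron regulation, 20 were tested, and 4 rose, 5 fell and 11 did not pass, with a median log2 fold change of 0.03. Slc48a1, the transporter that brings heme out of the lysosome, fell by 0.90 (SE 0.0789, edgeR adjusted p = 3.30e-08), from a median of 71.1 CPM to 38.1 CPM, with no overlap. Steap4, a metalloreductase related to Steap3, rose from 0.342 CPM ± 0.140 (SD, n = 6) to 2.36 CPM ± 0.372 (SD, n = 6), a log2 fold change of 2.76 (edgeR adjusted p = 6.17e-08) that rests on 243 reads in all. Lcn2, which binds iron carried by bacterial siderophores, rose by 1.14 on the log2 scale (edgeR adjusted p = 5.35e-07), from a median of 5.57 CPM to 12.2 CPM. Pcbp3, of the poly(rC)-binding family that includes iron chaperones, fell by 0.45 (edgeR adjusted p = 1.15e-06). Of the same family, Pcbp1 fell by 0.31 and Pcbp2 by 0.66 (edgeR adjusted p = 1.45e-04 and 1.85e-06), both without overlap.

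Of 30 genes of heme and iron-sulfur cluster synthesis, 29 were tested, and 15 rose, 6 fell and 8 did not pass, with a median log2 fold change of 0.19. The called share was 72.4% beside the 51.9% of all genes. It was 45% in the list of iron regulation and 50% in the list of other zinc genes. Uros, an enzyme of heme synthesis, rose from a median of 43.0 CPM to 63.7 CPM without overlap (log2 fold change 0.58, edgeR adjusted p = 1.25e-06). Nfs1, the desulfurase that supplies sulfur to clusters, and Mms19, of the cytosolic assembly complex, rose by 0.46 each (edgeR adjusted p = 4.61e-06 and 1.78e-06). Isca2, a late-acting mitochondrial assembly factor, fell by 0.83 (SE 0.0852, edgeR adjusted p = 2.27e-07), from a median of 50.0 CPM to 28.1 CPM without overlap.

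Of 9 other zinc genes, 8 were tested, and 3 rose, 1 fell and 4 did not pass. Trpm2, a cation channel, rose from a median of 1.52 CPM to 3.05 CPM (log2 fold change 0.96, edgeR adjusted p = 3.90e-04), and Tmc8, which binds the exporter Slc30a1, rose from 0.603 CPM to 1.06 CPM (0.82, edgeR adjusted p = 0.0234) at few reads. The Tmc8 call was lost, with adjusted p from 0.0520 to 0.0619, without any 1 of sh-ctrl replicates 3 and 6 and sh-Il22ra1 replicates 2 and 6. Cbwd1, a zinc chaperone now called Zng1, rose by 0.34 (edgeR adjusted p = 0.00986). Tmem163, a zinc transporter of vesicles, fell by 0.23 (edgeR adjusted p = 0.00437), from a median of 109 CPM to 93.6 CPM, with no overlap.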

How the data were processed

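The 12 deposited files hold whole-number read counts per gene symbol, 1 file per library, with 24421 symbols each. Groups and replicate numbers come from the sample titles. The submitters' processing notes name HISAT2 2.0.5, HTSeq and mm10. Neither the annotation nor the strand setting is given in the sources used here. Rows that name no gene (23.5% to 31.7% of a file) were left out. A deposited series table of CPM repeats these libraries and was not used.

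The analysis used edgeR 4.0.16 in R 4.3.3: filterByExpr (minimum count 10, minimum total 15), TMM scaling, and a two-sided quasi-likelihood test with Benjamini-Hochberg adjustment over 13102 genes at 0.05, without a replicate block. The biological coefficient of variation was 0.105. The test was checked on simulated data. CPM use TMM library sizes. Genes under the filter with at least 3 reads had two-sided exact permutation tests of 6 against 6. Alternatives were RLE and upper-quartile scaling, other filters, DESeq2 1.42.0, limma-voom (limma 3.58.1), a replicate block and leaving out each library; leaving out sh-ctrl replicates 1 and 4 together, and offsets from splines of length and GC content (4 degrees of freedom each), were added after seeing the data.

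Positions, lengths and hairpins come from GENCODE M21 (GRCm38), matched to 24026 of the 24421 symbols, and promoter windows from RefSeq, with Python 3.11.15. No libraries were merged as duplicates, since the 2 most alike within a group had a chi-square per degree of freedom of 3.98. All 36 genes were named whatever their values, with up to 4 called genes of smallest p from each of the 3 further lists. Aco1, Fbxl5, Pcbp1, Pcbp2, Ins1 and Ins2 were named after their values were seen. Genes and lists were chosen with earlier results of these data known.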

Additional observations from a re-analysis of the deposited data

Results flagged for a closer look

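In 5 of the 84 sets of 6 libraries checked (each gene in each group), 1 library lay far from the other 5 by Dixon's criterion at 95%, which chance alone meets in about 1 set in 20. Tfrc was at 52.2 CPM in sh-Il22ra1 replicate 1, beside 29.9 to 37.6 CPM in the other 5 libraries of the group. Slc30a4 was at 22.4 CPM in the same library, beside 16.1 to 17.8 CPM. Mt3 was at 94.0 CPM in sh-Il22ra1 replicate 2, beside 65.9 to 73.2 CPM. Mtf1 was at 18.4 CPM in sh-Il22ra1 replicate 5, beside 16.3 to 16.9 CPM, still under every control. Slc39a4 was at 2.67 CPM in sh-Il22ra1 replicate 4, beside 1.50 to 1.92 CPM.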

How the results depend on the processing

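Over 21 alternatives (19 planned, 2 added after seeing the data), 16 of the 17 called zinc and iron genes kept their direction and call in each, with adjusted p of at most 0.0383 (edgeR, DESeq2 or limma-voom). The exception was Mt1, called in 14 of 21, with -0.51 (adjusted p = 0.0797) in DESeq2 and adjusted p from 0.0568 to 0.0742 without any 1 of sh-ctrl replicates 1 and 4 and sh-Il22ra1 replicates 3, 5 and 6; fewer libraries were tested there, and beyond that the cause was not tested. Of the 13 genes not called, 10 passed under some alternative and 3 (Slc30a6, Slc39a4 and Steap3) under none; the signs of Slc30a6 and Slc39a4 changed without a call. With length and GC offsets 16 zinc and iron genes were higher instead of 9, while the count over all genes went from 3323 to 4352 and their median log2 fold change from -0.0043 to 0.040; the cause was not tested. Leaving out 1 library at a time, 9 to 11 were higher and 7 to 9 lower, and the count of genes under the filter that passed ranged from 0 to 1 (Slc30a3, adjusted exact permutation p = 0.0325 without sh-ctrl replicate 6). Without sh-ctrl replicates 1 and 4 together 11 were higher and 8 lower. Replicate numbers recur in both groups. Over all genes tested, the deviations of same-numbered libraries correlated at -0.0328 to 0.229. Only 3 of 12 libraries correlated best with their own number, so the numbers were not taken to pair samples. Single genes were not checked in this way. With the replicate block 12 zinc and iron genes were higher (with Ncoa4, Slc39a14 and Slc40a1 added) and 9 lower (with Mt2 added), and over all genes 3463 and 3566. Depth limits Slc30a2, Slc30a3, Slc30a10, Slc39a2, Slc39a5 and Slc39a12.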
